A study of Mus musculus with 6 samples.

Results

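The genes described here are Rac1 and 5 of its exchange factors that act in dendritic spines, Tiam1, Tiam2, Trio, Kalrn and Vav2. Their CpG methylation was read from reduced representation bisulfite sequencing (RRBS) of the dentate gyrus, the part of the hippocampus in which granule neurons are made throughout adult life. A site, meaning 1 cytosine of a CpG on 1 strand, belonged to a gene if it lay between 1 kb upstream of the gene start and the gene end in the GENCODE M21 records. This rule kept 844 of 890041 sites. All 6 animals were female C57BL/6JRj mice aged 4.5 months, for which the labels name no transgene or engineered allele. The STD group held 3 mice from standard cages and the ENR group held 3 mice from an enriched environment, an enclosure with tunnels and toys. According to the study's methods, ENR mice lived together in larger groups than STD mice, so enrichment and shared enclosure cannot be told apart. Each library was made from micro-dissected tissue of 1 mouse. The dissected tissue contains several cell types, so that a change in cell makeup and a change of methylation within cells cannot be told apart.

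Rac1 is a small GTPase that switches between an inactive GDP-bound and an active GTP-bound form. Guanine nucleotide exchange factors (GEFs) load it with GTP, and active Rac1 drives branched actin assembly, which shapes the heads of dendritic spines, the sites of most excitatory synapses. Tiam1 and Tiam2 are closely related Rac GEFs, and Tiam1 links glutamate and ephrin receptors to actin in spines. Trio and Kalrn (kalirin) are large proteins with a Rac GEF domain and a further GEF domain for RhoA, and Kalrn maintains spines in the adult forebrain. Vav2 is a GEF that is switched on by tyrosine phosphorylation, for example downstream of Eph and neurotrophin receptors. In mammalian genomes, CpG-rich starts of active genes are usually unmethylated, whereas the bodies of transcribed genes carry CpG methylation.

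Tiam1 is on chromosome 16 (mm10, 89787111 to 90143769, minus strand) and held the most sites, 241, of which 56 were promoter sites and 185 were body sites. A promoter site was within 1 kb of the start of any transcript of the gene, and every other site of the window was a body site. Tiam2 on chromosome 17 (3326573 to 3531344, plus strand) held 84 sites. Trio on chromosome 15 (27730651 to 28025848, minus strand) held 204, Kalrn on chromosome 16 (33969073 to 34573532, minus strand) 169 and Vav2 on chromosome 2 (27262104 to 27427033, minus strand) 96. Coverage was therefore spread over all GEFs but was far from even, with the sites in short clusters. Rac1 on chromosome 5 (143503634 to 143528036, minus strand) held 50 sites, of which 48 were promoter sites. The 2 body sites of Rac1 lay in the annotated UTR at its far end and also inside the record of Daglb, which overlaps it, so these reads cannot be given to Rac1 alone. No other member site lay inside another gene record.

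Over the 6 genes, 389 promoter sites averaged 7.77%, 7.58% and 6.98% methylation in STD replicates 1 to 3 and 7.65%, 7.79% and 6.33% in ENR replicates 1 to 3. The 455 body sites averaged 42.2%, 40.9% and 34.1% in STD and 38.4%, 38.5% and 31.8% in ENR. The library numbered 3 was the lowest in both groups, and the groups overlapped in both parts. Replicate 3 was also the lowest library of each group over all sites of the table, and 24.8% and 26.2% of member body sites read exactly 0 in STD replicate 3 and ENR replicate 3, against 11.9% to 19.8% in the other 4 libraries. For this reason, the differences between groups in bodies, in promoters and in their gap are also given without both libraries numbered 3. The pooled promoter difference was -0.19 percentage points with all libraries and 0.045 without them. How many reads support a percentage is not known, other than that the authors required at least 10 at each site.

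The first question was how methylation is laid out along these genes. Most member sites were unmethylated or lowly methylated: 524 of 844 sites had a mean under 20%, 253 lay between 20% and 80%, and 67 lay above 80%. At 189 sites the value was 0 in every library, and at 3 sites it was 100% in every library. The 409 sites in locally CpG-rich sequence (G and C content of 50% or more and a CpG ratio, observed over expected, of 0.6 or more within 100 bases on either side) averaged 7.68%, and the other sites averaged 38.7%. In Trio this local sequence measure did not mark low methylation everywhere, since its 76 CpG-rich promoter sites averaged 1.81% whereas its 25 CpG-rich body sites averaged 57.2%.

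**Figure D1:**
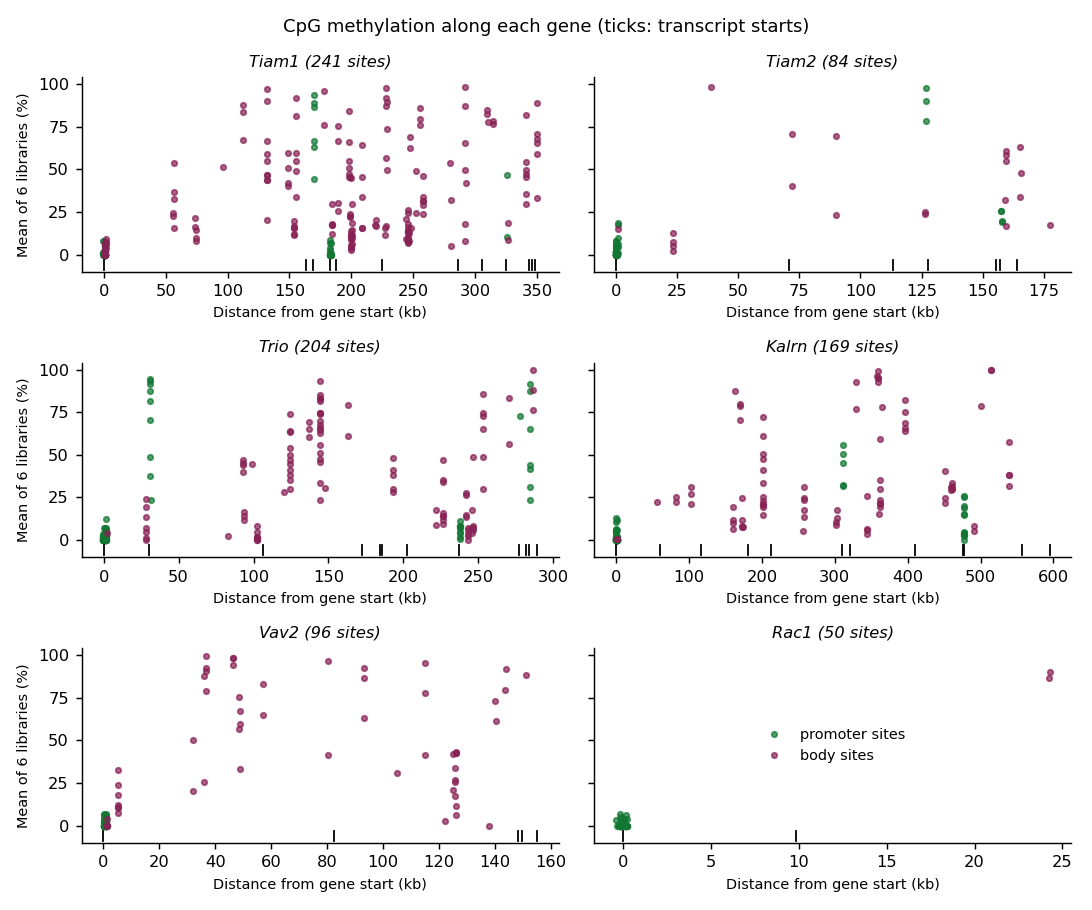
Mean CpG methylation over the 6 libraries (percent, vertical axis) of each member site against its distance from the gene start (kb, horizontal axis) in 1 panel per gene, with promoter sites in green, body sites in purple and short ticks at annotated transcript starts. The gene starts sit near 0 in every panel, while some internal starts, such as the one 169.07 kb into Tiam1, are surrounded by methylated sites.

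Body methylation was above promoter methylation in all 6 libraries for each of the 6 genes (two-sided exact sign-flip permutation test over libraries, p = 0.03125, the smallest possible value). Of all 6866 genes with at least 5 sites in each part, 84.7% showed the same, so the 5 GEFs did what most genes in the table do. Rac1 is not among these genes, since its body holds only the 2 sites that also lie inside Daglb. The gap between body and promoter was 23.7 ± 2.70 percentage points (SD over 6 libraries) in Tiam1 and 24.97 ± 3.19 in Trio. It was 29.4 ± 7.58 in Tiam2 and 32.4 ± 4.73 in Kalrn. Vav2 had the widest gap among the GEFs, 46.5 ± 5.61 percentage points.

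Among the GEFs, mean body methylation rose from Tiam1 (34.0%) over Tiam2 (37.0%), Trio (37.5%) and Kalrn (37.8%) to Vav2 (48.0%). The order was taken from these same means, so no test is given for it. Neighbours among the first 4 differed by less than their spread over libraries, with 2.98 ± 5.58 percentage points (SD over 6 libraries) between Tiam1 and Tiam2, 0.505 ± 5.85 between Tiam2 and Trio and 0.249 ± 2.18 between Trio and Kalrn. Kalrn was above Tiam1 in 6 of 6 libraries, by 3.73 ± 2.64 percentage points. Vav2 was above each other GEF in 6 of 6 libraries, and above Kalrn by 10.2 ± 3.06 percentage points. The 2 body sites of Rac1 averaged 88.2%, which describes the far end of the gene only.

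By annotation, the 107 sites upstream of the genes averaged 1.34% over the 6 libraries and the 90 UTR sites 5.35%, whereas the 585 intron sites averaged 29.7% and the 44 coding sites 40.9%. Coding sites differed widely between genes, with 56.5% over 20 sites in Trio, 37.3% over 8 sites in Kalrn and 13.8% over 14 sites in Tiam1. The level of the coding sites was set apart in 1 library. STD replicate 1 had 59.5% over the 44 sites, against 36.1% to 38.4% in the other 5 libraries. It was the highest library in Trio (69.7%), Kalrn (69.8%) and Tiam1 (36.5%). At the 2 coding sites of Tiam2 it was the lowest, with 77.0% against 80.9% to 100% in the other libraries. The STD mean of coding sites (44.1% ± 13.3, SD, n = 3) therefore rests on that mouse in its distance from the ENR mean (37.6% ± 0.992), and the groups overlapped.

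At promoters the order was different. Rac1 and Vav2 were almost unmethylated, with 0.939% ± 0.437 and 1.49% ± 0.447 (SD, n = 6 libraries). Kalrn had 5.37% ± 1.27, Tiam2 7.61% ± 0.974, Tiam1 10.3% ± 1.42 and Trio 12.5% ± 1.37. The higher values of the last genes came from internal transcript starts and not from the gene starts, as the next comparison shows.

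**Figure D2:**
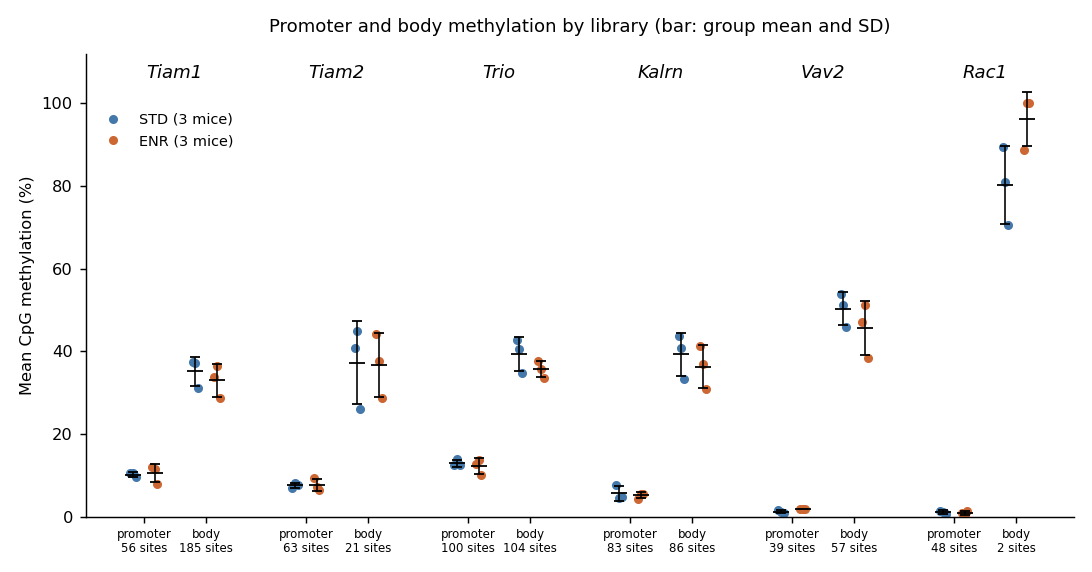
Mean CpG methylation (percent) of promoter and body sites of each gene, with 1 point per mouse, STD in blue and ENR in orange, and black bars for the group mean and SD (n = 3). Body values lie above promoter values for all 6 genes, and STD and ENR points overlap in each pair except the promoter of Vav2.

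The 6 genes have 50 annotated transcript starts when starts within 1 kb of each other are taken as 1, and 13 of these had at least 5 covered sites within 1 kb. At the first start of each gene methylation was low throughout. It was 1.56% ± 0.811 (SD, n = 6) over 29 sites in Tiam1, 2.21% ± 0.618 over 56 sites in Tiam2 and 1.55% ± 0.489 over 74 sites in Trio. It was 1.42% ± 0.273 over 66 sites in Kalrn, 1.49% ± 0.447 over 39 sites in Vav2 and 0.939% ± 0.437 over 48 sites in Rac1. In Trio and Vav2 some of these sites lie more than 1 kb from the gene start, near a second transcript start, and the 47 sites of Trio and 31 sites of Vav2 within 1 kb of the gene start alone had 1.13% ± 0.358 and 1.43% ± 0.669. All 6 gene starts were thus close to unmethylated. The first start of Kalrn has no transcript annotated as protein-coding. Its next start, at 59.417 kb with 4 transcripts of which 3 are protein-coding, had no covered site.

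Internal starts were more varied. In Tiam1, the start of 3 transcripts, 1 of them protein-coding, 169.07 kb into the gene had 68.1%, 73.4% and 73.9% in STD and 81.8%, 86.7% and 59.6% in ENR over 6 sites. The next covered start, 182.942 kb into the gene with 2 transcripts of which 1 is protein-coding, had 1.62% ± 0.839 over 19 sites. A methylated and an unmethylated internal start of Tiam1 were therefore neighbours among the covered starts, and their libraries did not overlap. In Trio, starts of transcripts not annotated as protein-coding had 69.9% ± 7.90 over 9 sites at 30.485 kb and 54.9% ± 13.4 over 7 sites at 283.525 kb. A protein-coding start of Trio at 237.21 kb had 5.94% ± 4.05 over 9 sites. In Kalrn, the start shared by 5 transcripts, 4 of them protein-coding, at 310.332 kb had 43.0% ± 16.5 over 5 sites, and the start shared by 3 protein-coding transcripts at 477.504 kb had 11.5% ± 5.90 over 12 sites. Of the 13 starts, 9 had a mean under 20%. At the Kalrn start at 310.332 kb single libraries ranged from 23.8% in ENR replicate 1 to 67.7% in STD replicate 1.

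**Figure D3:**
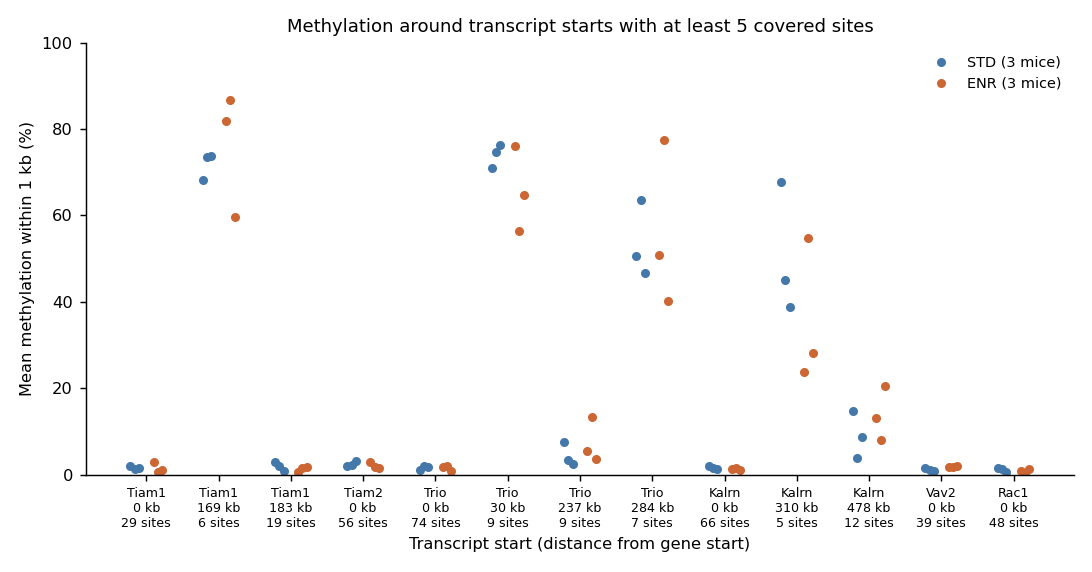
Mean methylation (percent) within 1 kb of each annotated transcript start with at least 5 covered sites, labelled by gene, distance from the gene start (kb) and number of sites, with 1 point per mouse. All 6 gene starts lie near 0, whereas internal starts of Tiam1, Trio and Kalrn range from below 10% to above 60%.

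The second question was whether ENR changed the methylation of these genes. No member differed between STD and ENR after correction, in its whole window, its promoter or, for the 5 GEFs, its body. The body of Rac1 had too few sites for the fit. limma called 0 of 20884 genes over whole windows (0% of those tested), 0 of 17636 promoters and 0 of 9833 bodies, and its adjusted p-values for the members were 0.999892 for whole windows, 0.997844 for promoters and 0.999916 for the 5 fitted bodies. At an unadjusted p under 0.05 it called 771 whole windows, 790 promoters and 316 bodies of all genes. None of the members was among those.

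For whole windows, the mean of Vav2 was 30.3% ± 2.55 (SD, n = 3) in STD and 27.8% ± 3.84 in ENR. Trio had 26.4% ± 2.20 in STD and 24.2% ± 1.79 in ENR. In Kalrn the means were 22.7% ± 3.35 and 20.99% ± 2.35. These 3 GEFs had lower means in ENR, by no more than about the SD of the STD mice, and with 1 library left out the differences ranged from -4.18 to -0.42 in Vav2, -3.51 to -1.21 in Trio and -3.47 to -0.12 in Kalrn. Tiam1 had 29.3% ± 2.88 and 27.7% ± 3.47, Tiam2 had 15.0% ± 2.52 and 15.0% ± 2.95, and Rac1 had 4.26% ± 0.762 and 4.60% ± 0.538. The groups overlapped in all 6 whole windows, where 8.34% of all genes had groups that did not overlap.

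In the body, single libraries of Vav2 had 54.0%, 51.1% and 45.9% in STD and 47.2%, 51.1% and 38.4% in ENR, a difference of -4.74 percentage points (SE 4.75). Trio had 42.8%, 40.5% and 34.8% in STD and 37.6%, 35.8% and 33.6% in ENR (-3.70, SE 3.67). Kalrn had 43.6%, 40.8% and 33.4% in STD and 41.2%, 36.8% and 30.9% in ENR (-2.95, SE 4.46). The STD replicate 3 of each gene fell among the ENR libraries, and no group stood clear of the other. Tiam1 differed by -2.17 percentage points (SE 3.67) and Tiam2 by -0.50 (SE 6.30). Without both libraries numbered 3 the differences were -3.36 in Vav2, -4.98 in Trio, -3.17 in Kalrn, -2.10 in Tiam1 and -2.11 in Tiam2. Thus all 5 GEF bodies had lower means in ENR with or without these libraries, and none passed the test. The sizes depended on single mice. Leaving out ENR replicate 3 alone took Vav2 to -1.17, Trio to -2.69, Kalrn to -0.24, Tiam1 to -0.035 and Tiam2 to 3.56. Leaving out STD replicate 1 took Trio to -1.99, Kalrn to -0.79, Vav2 to -2.93, Tiam1 to -1.08 and Tiam2 to 1.30. Tiam2 was also higher in ENR without STD replicate 2 (3.37). In contrast, leaving out STD replicate 3 took Trio to -5.99, Kalrn to -5.88, Vav2 to -6.94, Tiam1 to -4.23 and Tiam2 to -6.17. Over all genes with at least 5 body sites, 61.7% had a lower body mean in ENR, with a median difference of -0.72 percentage points, and the groups did not overlap in 7.31% of bodies. Over the 455 member body sites together, the difference was -2.83 percentage points (exact permutation test, p = 0.5, where 0.1 is the smallest possible), against -1.11 over all body sites of the table. Without both libraries numbered 3 these were -3.07 and -0.42. The member value became -0.60 without ENR replicate 3 and -5.31 without STD replicate 3. The 2 body sites of Rac1 went the other way, with 89.4%, 80.9% and 70.6% in STD and 88.6%, 100% and 100% in ENR, and overlapped between groups (exact permutation test, p = 0.2). Their difference was 15.9 percentage points, and 9.14 without both libraries numbered 3.

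At promoters, Vav2 was the 1 member whose groups did not overlap. Its 39 promoter sites, of which 31 lay within 1 kb of the gene start and the others near a second transcript start, averaged 1.51%, 1.09% and 0.81% in STD and 1.76%, 1.85% and 1.90% in ENR. The rise of 0.70 percentage points (SE 0.361) is small and was not called by limma (adjusted p = 0.997844; exact permutation test, p = 0.1, the smallest possible). At the 31 sites alone the difference was 0.96. Groups without overlap were found in 9.48% of all promoters. The other promoters differed by 0.30 in Tiam1, 0.17 in Tiam2, -0.73 in Trio, -0.48 in Kalrn and -0.31 percentage points in Rac1. Without both libraries numbered 3 they differed by 1.21 in Tiam1, 0.84 in Tiam2, 0.12 in Trio, -1.18 in Kalrn and -0.78 in Rac1, and Vav2 differed by 0.51.

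Whether ENR acted differently on body and promoter was tested directly. The gap between body and promoter differed between ENR and STD by -5.45 percentage points in Vav2, -2.98 in Trio, -2.47 in Kalrn, -2.47 in Tiam1 and -0.67 in Tiam2, the sign meaning a smaller gap in ENR. Without both libraries numbered 3 the values were -3.87 in Vav2, -5.10 in Trio, -1.99 in Kalrn, -3.30 in Tiam1 and -2.95 in Tiam2, so that Trio and not Vav2 was farthest from 0. limma called 0 of 6866 genes (0%) for this difference of parts, and all 5 members had an adjusted p of 0.999754. At an unadjusted p under 0.05 it called 221 genes, none of them a member. Rac1 had too few body sites for this fit.

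The third question concerned single CpGs. limma called 0 of 615152 varying sites in the table (0%), 0 of them in the members, and the lowest adjusted p of a member site was 0.851623. At an unadjusted p under 0.05 it called 23 of the 652 member sites that varied (3.53%) and 16498 of all varying sites (2.68%). Without a test, 36 of 844 member sites (4.27%) differed by more than 25 percentage points between group means, against 1.94% of all sites. Of these, 28 were lower in ENR, against 1.23% of all sites, and 8 were higher, against 0.706%. Because promoter and body sites differ in level, the shares were also taken within each part. In bodies 30 of 455 member sites (6.59%) passed 25 points against 4.28% of body sites of all genes, and in promoters 6 of 389 (1.54%) against 0.654%. These are counts over few and neighbouring sites and carry no test. Without both libraries numbered 3, the count was 67 of 844 (7.94%), 53 of them lower, against 2.85% of all sites, with means of 2 mice per group.

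Tiam1 held 15 such sites, 11 of them lower in ENR, which made up 6.22% of its sites. Vav2 held 6 (5 lower, 6.25% of its sites), Trio held 10 (8 lower, 4.90%) and Kalrn held 5 (4 lower, 2.96%). Tiam2 and Rac1 held none. Introns carried 29 of the 36, coding sequence 6 and UTR 1. They lay in 26 different tiles of 1 kb, and 20 of them were the only such site in their tile. In 6 tiles several sites passed the limit, and in 2 of these tiles the sites went in opposite directions. At 24 of the 36 sites the groups overlapped. Of the 28 lower sites, 15 had their lowest value in ENR replicate 3. Over the whole table, 7209 of 890041 sites (0.81%) passed 25 points with groups that did not overlap. In the members 12 of 844 sites did, 9 of them lower in ENR. Tiam1 held 3 of these, Trio 4, Kalrn 2 and Vav2 3.

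**Figure D4:**
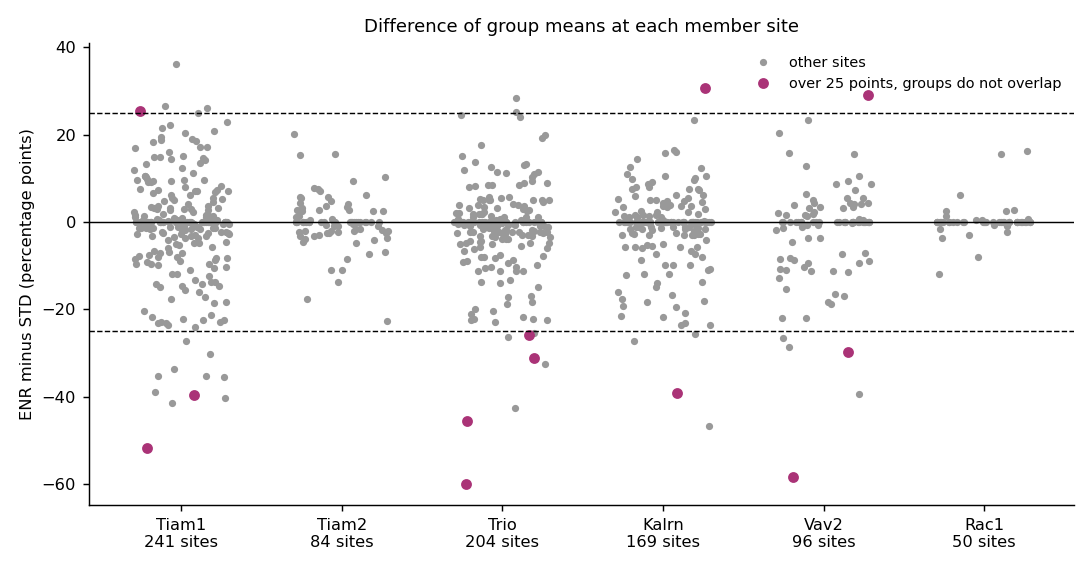
Difference of group means, ENR minus STD (percentage points, vertical axis), at each member site, grouped by gene and spread sideways at random. Dashed lines mark 25 points in either direction and large purple points are the 12 sites past it whose groups do not overlap, 9 of them below 0.

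Where the RRBS reads allowed it, the same CpG was compared on both strands, which come from separate reads of the same mice. Both strands were covered at 127 member CpGs, with a median gap of 0.594 percentage points between them. At 25 CpGs of intermediate level the median gap was 14.8 percentage points. Only 3 of the 127 CpGs passed 25 points on either strand, none did on both, and at all 3 the other strand went in the same direction. Agreement between strands was thus close at unmethylated CpGs and loose at intermediate ones.

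The sites with the largest fall and the largest rise among those without overlap are printed with 30 bases on either side, read from the plus strand of the GRCm38 reference, except for the rise in Kalrn, to show where in the sequence these CpGs sit. All 6 printed sites are intronic, and capitals mark the CpG. The lines are the fall in Tiam1 at chr16:89793451-89793512, the rise in Tiam1 at chr16:89973999-89974060, the fall in Trio at chr15:27755483-27755544, the fall in Kalrn at chr16:34372533-34372594, and the fall and the rise in Vav2 at chr2:27378359-27378420 and chr2:27283227-27283288.
Tiam1 fall: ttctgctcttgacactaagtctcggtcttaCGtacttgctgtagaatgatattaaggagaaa
Tiam1 rise: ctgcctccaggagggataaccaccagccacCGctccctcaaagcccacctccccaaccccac
Trio fall: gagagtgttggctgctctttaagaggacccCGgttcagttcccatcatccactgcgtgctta
Kalrn fall: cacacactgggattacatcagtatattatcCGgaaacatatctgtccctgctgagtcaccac
Vav2 fall: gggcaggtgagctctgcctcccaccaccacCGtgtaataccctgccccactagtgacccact
Vav2 rise: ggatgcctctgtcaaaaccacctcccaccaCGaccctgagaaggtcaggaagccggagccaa

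The Tiam1 fall was in an intron 350.288 kb into the gene. It read 100%, 74.1% and 100% in STD and 45.5%, 73.1% and 0% in ENR, a difference of -51.8 percentage points. ENR replicate 2 was within 1 point of the lowest STD mouse, so that the separation rests on a thin margin. A CpG 8 bp away on the same strand read 100%, 73.1% and 100% in STD and 45.5%, 73.1% and 33.3% in ENR (-40.4). Of 5 covered neighbours within 100 bp, 4 were lower in ENR, and the mean difference over all 5 was -19.6 percentage points. The 1 kb tile around them had the lowest difference of any member tile, -24.98 percentage points, and its groups overlapped. Without both libraries numbered 3, the difference at the site was -27.8.

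The Tiam1 rise lay 130 bp from a transcript start, in the methylated promoter at 169.07 kb described above. It read 63.6%, 59.6% and 38.5% in STD and 75%, 92.6% and 70% in ENR (25.3 percentage points). The sites around it did not rise together. Of 5 neighbours, 1 that lay 64 bp away was higher in ENR by 10.2 percentage points, and the others differed by -6.67 to -0.035. The mean difference over all 5 was 0.032 percentage points.

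In Trio the fall was in an intron 270.334 kb from the gene start. STD mice read 92.3%, 67.6% and 100%, and ENR mice read 47.8%, 31.8% and 0% (-60.1 percentage points, the largest fall of any member site). Its only covered neighbour within 100 bp, 59 bp away, was higher in ENR by 13.2 percentage points. Trio had no rise past 25 points without overlap. The other 3 falls of Trio without overlap ranged from -25.9 to -45.6, 1 of them in coding sequence. At the intronic site with -45.6, picked out after its values were seen because both strands were covered, the opposite strand of the same CpG differed by -11.2 percentage points.

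Kalrn fell in an intron 200.968 kb into the gene, from 62.5%, 30% and 34.9% in STD to 0%, 9.72% and 0% in ENR (-39.2 percentage points). A neighbour 44 bp away differed by 3.45 in the other direction. The rise in Kalrn was at position 34095891 of chromosome 16, in the UTR 96 bp from the start shared by 3 protein-coding transcripts. It read 13.6%, 0% and 0% in STD and 25%, 42.9% and 37.9% in ENR (30.7 percentage points). A CpG 2 bp away on the same strand read 41.2%, 0% and 0% in STD and 18.2%, 52.6% and 40.6% in ENR. Over all 8 neighbours within 100 bp the mean difference was 2.39 percentage points, and 4 were higher.

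Vav2 gave the fall with the tightest ENR values, in an intron 48.643 kb into the gene. The STD mice read 94.7%, 63.0% and 100% and the ENR mice read 25%, 30% and 27.3% (-58.5 percentage points). A site 100 bp away on the other strand read 77.8%, 72.7% and 73.7% in STD and 50%, 38.9% and 46.2% in ENR (-29.7), again without overlap. The sites between and beside them were mixed, with 3.28 and 7.28 percentage points in the other direction at 2 of them. A site 19 bp from the one with -29.7 was lower in ENR by -28.7, with overlapping groups. The rise in Vav2, in an intron 143.776 kb into the gene, read 70.7%, 71.8% and 53.3% in STD and 88.9%, 94.1% and 100% in ENR (29.0 percentage points). Its neighbour 31 bp away was higher in ENR by 8.75. At each of these named sites the limma adjusted p was 0.851623.

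Averaging sites over 1 kb tiles gave 88 member tiles with at least 3 sites. limma called 0 of 72222 tiles (0%), and the adjusted p of every member tile was 1. At an unadjusted p under 0.05 it called 2 of the 88 member tiles (2.27%) and 2874 of all tiles (3.98%). Means were lower in ENR in 56 member tiles and higher in 32, from -24.98 to 11.5 percentage points. In 5 tiles (3 lower) the groups did not overlap, where 8.88% of all tiles did not. Vav2 held 3 of these and Tiam1 and Trio 1 each.

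The covered stretches of the tiles with the largest difference without overlap are shown because their CpG spacing differs, with capitals at the CpGs that were covered. They lie in an intron of Vav2 at chr2:27378261-27378438, in an intron of Tiam1 at chr16:89959130-89959245 and upstream of the Trio gene start at chr15:28025994-28026066, each on the plus strand.
Vav2 tile: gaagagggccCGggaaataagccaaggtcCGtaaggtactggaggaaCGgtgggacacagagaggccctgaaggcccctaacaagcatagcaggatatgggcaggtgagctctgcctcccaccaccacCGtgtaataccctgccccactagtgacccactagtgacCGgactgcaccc
Tiam1 tile: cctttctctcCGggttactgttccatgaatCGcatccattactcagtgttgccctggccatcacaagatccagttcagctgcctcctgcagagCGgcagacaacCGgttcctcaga
Trio tile: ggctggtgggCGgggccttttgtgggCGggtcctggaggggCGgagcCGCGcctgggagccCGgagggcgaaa

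The Vav2 tile, which holds both neighbouring falls named above, had 72.6%, 68.5% and 66.3% in STD and 41.7%, 59.9% and 42.0% in ENR over 5 sites. Its difference of -21.3 percentage points was the largest among member tiles without overlap. The Tiam1 tile lay 184.268 kb into the gene, just beyond the unmethylated internal start, and had 17.1%, 17.3% and 10.6% in STD and 20.5%, 29.5% and 17.8% in ENR over 5 sites (7.59 percentage points higher). In the Trio tile, 11 sites just upstream of the gene start were almost free of methylation in both groups, 0.998%, 1.69% and 1.27% in STD and 0.779%, 0% and 0% in ENR. The difference was -1.06 percentage points.

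A region of Tiam1 was studied in this project by targeted assays whose primers the study lists. The primers matched an intronic region 247.217 kb from the gene start, where the bisulfite amplicon covers 367 bp (chr16:89896369-89896735) with 7 CpGs. The 6 RRBS libraries analysed here had values at 0 of these CpGs, and the nearest covered site was 140 bp away. The shorter chromatin immunoprecipitation amplicon inside it is printed to show the CpGs in question in capitals, plus strand, chr16:89896459-89896573.
Tiam1 amplicon: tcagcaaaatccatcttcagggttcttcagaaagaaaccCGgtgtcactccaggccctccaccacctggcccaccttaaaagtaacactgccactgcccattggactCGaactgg
Within 500 bp of the bisulfite amplicon 2 sites were covered. They read 76.7%, 67.5% and 58.3% in STD and 69.0%, 52.2% and 50% in ENR at the first, and 64.5%, 72.1% and 92.0% in STD and 82.8%, 52% and 50% in ENR at the second. Both means were lower in ENR, with differences of -10.5 and -14.6 percentage points, overlapping groups and a limma adjusted p of 0.851623. The differences were -11.5 and -0.93 without both libraries numbered 3. These data therefore do not bear on the CpGs of the amplicon itself.

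The wider Rac pathway was read from a list of 55 genes in 4 roles, all of which had sites. limma called none at an adjusted p under 0.05 and 2 at an unadjusted p under 0.05 (3.64%, against 3.69% of all genes). In ENR the whole-window mean was lower for 37 genes and higher for 18, with a median of -0.31 percentage points, against a median of -0.18 and 57.8% lower over all genes. The counts without both libraries numbered 3 were 28 lower and 27 higher, with a median of -0.033, against -0.068 and 52.6% lower over all genes, so the lean towards lower values was not seen without these libraries. Among 19 other Rac exchange factors and Elmo proteins, the partners with which Dock proteins act as exchange factors, 15 were lower, with a median of -0.59, and 11 without both libraries numbered 3. Among 10 GTPase-activating proteins and dissociation inhibitors, which switch Rac off or hold it in the cytosol, 5 were lower and 5 higher. Among 21 effectors and actin regulators 14 were lower, and among 5 other Rac-like GTPases 3 were lower. The groups did not overlap in 5 of the 55 genes (9.09%), close to the 8.34% of all genes.

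Farp1, an exchange factor of developing dendrites, had the largest difference of those 5. It read 30.7%, 31.6% and 31.6% in STD and 30.02%, 29.8% and 26.4% in ENR over 110 sites, and its body mean differed by -4.95 percentage points. The whole-window difference of Farp1 was -2.59 percentage points with all libraries and -1.26 without both libraries numbered 3, and that of Elmo1 was -0.55 and -0.35. Elmo1, the partner of Dock exchange factors, had 17.5% ± 0.211 (SD, n = 3) in STD and 16.9% ± 0.321 in ENR. Rhog, a GTPase upstream of Elmo and Dock, had 4.43% ± 1.13 and 3.05% ± 0.285. Wasf2 and Abi1 belong to the WAVE complex, through which Rac1 starts branched actin. Wasf2 went from 4.79% ± 0.559 to 3.40% ± 0.719 and Abi1 from 1.37% ± 0.482 to 2.53% ± 0.515, so that 2 subunits of the same complex differed in opposite directions. All 5 genes had a limma adjusted p of 0.999892.

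**Figure D5:**
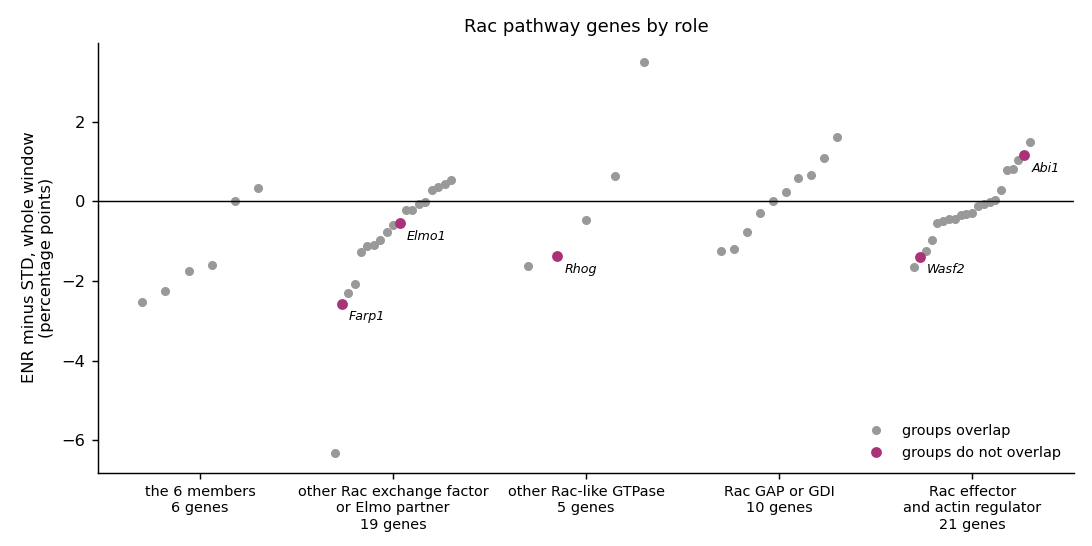
Difference of whole-window means, ENR minus STD (percentage points, vertical axis), with 1 point per gene, for the 6 members and the 55 other Rac pathway genes by role, sorted within each role. Purple points are the 5 genes whose groups do not overlap, and 15 of the 19 other exchange factors and Elmo partners lie below 0 with all libraries, but 11 without both libraries numbered 3.

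Among 4033 genes with at least 50 sites and at least 5 in each part, the genes whose promoter and body means over the 6 libraries (12 values) were nearest to each GEF were listed by Euclidean distance. Vav2 was nearest to Tll2 (4.27) and Ntrk2 (5.30), Tiam1 to Sh3pxd2a (5.62) and Ebf1 (6.04), and Kalrn to Caln1 (5.94) and Zbtb38 (6.46). Tiam2 was nearest to Slc38a10 (9.12) and Ptpre (10.7), and Trio to Msantd3 (9.38) and Fat1 (9.78). These distances are in percentage points and describe likeness of level only.

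Cell type markers were checked because the tissue is mixed. Methylation alone does not show which cells were present. Of 12 marker genes, 10 had sites. The 3 astrocyte markers Aldh1l1, Gfap and Slc1a3 averaged 29.3% to 32.7% in STD and 25.7% to 29.0% in ENR, without overlap between groups. Markers of granule neurons averaged 11.1% to 14.3% and 9.86% to 14.5%, those of oligodendrocytes 45.6% to 55.5% and 45.7% to 52.9%, and those of microglia 36.6% to 51.9% and 31.1% to 51.0%. The ENR minus STD difference was -2.91 percentage points for the astrocyte markers, -3.01 for the oligodendrocyte markers, -0.38 for the granule neuron markers and 0.86 for the microglia markers, the last 3 with overlapping groups. These became, without both libraries numbered 3, -2.59, -6.01, 0.047 and 4.08. Neither the astrocyte nor the oligodendrocyte values then overlapped between groups, but groups of so few mice often separate by chance. No share over all genes is given for that setting. With all libraries, groups did not overlap in 8.34% of the whole windows of all genes. Astrocyte and oligodendrocyte markers moved in the direction of the lower body means of the GEFs, as did the whole-window means of 57.8% of all genes. The part of these markers in the differences of the GEFs was not tested.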

How the data were processed

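Reduced representation bisulfite sequencing libraries came from the dentate gyrus of 3 STD and 3 ENR mice. Per the labels, reads were processed with Trim Galore 0.4.0, cutadapt 1.8.1, Bismark 0.16.1 and methylKit 1.5.2 on mm10. The study's methods give other versions of Trim Galore and Bismark. The authors kept cytosines with at least 10 reads and removed those above the 99.9th percentile of coverage. The deposited table holds, for each of 890041 CpG cytosines and each library, the percent of reads that were methylated, with 0 missing values. Depth per site is unknown, so no counting interval was given and all sites weighed equally.

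Sites were assigned to genes with GENCODE M21 and sequences came from GRCm38.p6. Means per library of whole window, promoter, body and 1 kb tiles (at least 3 sites), and single sites, entered limma 3.58.1 (R 4.3.3; linear fits, moderated with a variance trend) over the whole table. Gene parts needed at least 5 sites. Calls needed a Benjamini-Hochberg adjusted p under 0.05 and, for sites and tiles, a difference over 25 percentage points. A test on read numbers, as in the study, needs more than percentages. The fit was tested on simulated data. Single values used exact permutation tests over the 20 regroupings of libraries (smallest p 0.1) or the 64 sign patterns. Sites were named as the largest rise and fall per gene over 25 points without overlap, tiles as the largest difference without overlap, and pathway genes as the up to 2 largest differences without overlap per role. Members, lists and alternatives were chosen with earlier results of these data known.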

Additional observations from a re-analysis of the deposited data

How the results depend on the processing

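No member gene, site or tile passed the threshold in any of the 254 recomputed values that have a limma adjusted p, obtained with the median over sites, averaged strands, tile means, promoters at the gene record start only, quantile normalization, sites in other genes left out, libraries left out, other variance models or scales, and 500 bp tiles. A further 61 recomputed values are counts or values without a limma test. The count of member sites over 25 points was 77 at a limit of 20 points (9.12% of member sites against 3.74% of all sites), 8 at 40 (0.95% against 0.24%), 62 with group medians (7.35% against 3.07%), 67 without replicate 3 of both groups (7.94% against 2.85%) and 52 to 63 with 1 library left out (6.16% to 7.46% against 2.60% to 3.42%), while 53 member sites (6.28%, against 2.29% of all sites) were over 25 points without overlap when replicate 3 was left out and each group had 2 mice. The share of lower sites among them was 77.8%, 64.7% after quantile normalization, 62.3% without STD replicate 1, 64.8% without STD replicate 2, 63.5% without ENR replicate 3 and 87.5% without STD replicate 3. Signs were not stable in the small differences. For whole windows, Tiam2 gave -0.33 with the median and -1.50 to 1.45 with 1 library left out, Rac1 gave -0.31 without sites in other genes, -0.38 without replicate 3 and -0.072 to 0.68 with 1 library left out, and Tiam1 ranged from -3.26 to 0.33. For promoters at the gene record start, Tiam1 gave -0.079 and Tiam2 -0.42, without replicate 3 Trio gave 0.12, Tiam2 0.84 and Kalrn -1.18, and Kalrn gave 0.064 after quantile normalization, and with 1 library left out the ranges were -0.42 to 1.54 in Tiam1, -0.61 to 0.75 in Tiam2, -1.54 to 0.32 in Trio and -1.05 to 0.57 in Kalrn. The body of Tiam2 gave 0.91 with the median, 0.33 with tile means, 0.85 with gene start promoters, 0.71 after quantile normalization and -6.17 to 3.56 with 1 library left out, and its gap between body and promoter gave 1.27 with gene start promoters. The cause was not tested. The bodies of Tiam1, Trio, Kalrn and Vav2 kept lower means in ENR in all 14 alternatives each, ranging with 1 library left out from -4.23 to -0.035, -5.99 to -1.99, -5.88 to -0.24 and -7.51 to -1.17. The median over sites gave -16.1 in the body of Vav2, and tile means gave -4.57 in the promoter of Trio and 5.11 in the whole window of Rac1. Body means stayed above promoter means in all 6 genes, but with 5 libraries the smallest sign-flip p is 0.0625.

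Whether replicate numbers pair the mice is not known, since the labels name no shared origin. Deviations of same-numbered libraries from their group means correlated by 0.060, 0.035 and 0.135 over all sites. Those of libraries with unlike numbers correlated by -0.089 to 0.045. With the number as a replicate block, the body difference of Vav2 was -4.74 (limma adjusted p = 0.936036), 0 members, 0 member sites and 0 gaps between body and promoter were called, and no call changed.

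Read depth per site is unknown beyond the minimum of 10 reads. With 3 mice per group, no difference in a gene mean or at a single CpG passed the correction over the whole table.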
